A study of Mus musculus with 12 samples.

Results

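The proton pump V-ATPase is built from subunits that mammals encode by several genes, and 10 genes of such isoform pairs were followed across the 4 groups of a collecting duct cell experiment. They were chosen by gene symbol: the 4 isoforms known for acid-secreting intercalated cells (Atp6v0a4, Atp6v1b1, Atp6v1c2 and Atp6v0d2, proteins a4, B1, C2 and d2) and 6 more widely expressed genes (Atp6v0a1, Atp6v0a2, Atp6v1b2, Atp6v1c1, Atp6v0d1 and Atp6v1g1, proteins a1, a2, B2, C1, d1 and G1). The table lists 25208 genes. Of the 10 genes, 9 have a row in it and 8 had enough reads to be tested. The table used here has no row for Atp6v0d2, and Atp6v1c2 had too few reads.

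RNA was sequenced from mpkCCDc11 cells, an immortalised clonal line of mouse kidney collecting duct cells. All cells were transfected with siRNA, either a control siRNA or one against Ctnnb1 (the gene of β-catenin), taken here to be at 50 nM: the labels' protocol writes that concentration beside a TRIM28 siRNA that no sample carries, and does not state it separately for the others. They were kept for 4 days on permeable supports and 24 h without serum and hormones, then given vehicle or 1 nM dDAVP, an agonist of the vasopressin V2 receptor, on the basolateral side for 24 h. The 4 groups were control siRNA with vehicle, control siRNA with dDAVP, Ctnnb1 siRNA with vehicle and Ctnnb1 siRNA with dDAVP, with 3 libraries each. The labels give the genotype as wild type and do not say whether the replicates were separate cultures, so p-values measure only the spread between these libraries, which may be technical.

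The V-ATPase couples ATP hydrolysis in its peripheral V1 sector to proton transport through its membrane V0 sector. The a subunit isoforms steer the pump to different membranes: a1 is known from synaptic vesicles, a2 from the Golgi and endosomes, a3 (gene Tcirg1) from osteoclasts and lysosomes, and a4 from the plasma membrane of intercalated cells, where it works with B1 to acidify the urine. Loss of a4 or B1 causes distal renal tubular acidosis in people, and principal cells are the collecting duct cells that respond to vasopressin by raising Aqp2, the water channel gene.

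RefSeq promoters (GRCm38.p6), from 250 bases before to 50 after the start, were found for 5 of the 10 members. The 3 shown belong to the a4 gene, the member that dDAVP raised, to the intercalated B1 gene, which was not called, and to the widely expressed d1 gene, with motif matches in capitals.
Atp6v0a4 promoter (chr6:38124537-38124836, minus strand): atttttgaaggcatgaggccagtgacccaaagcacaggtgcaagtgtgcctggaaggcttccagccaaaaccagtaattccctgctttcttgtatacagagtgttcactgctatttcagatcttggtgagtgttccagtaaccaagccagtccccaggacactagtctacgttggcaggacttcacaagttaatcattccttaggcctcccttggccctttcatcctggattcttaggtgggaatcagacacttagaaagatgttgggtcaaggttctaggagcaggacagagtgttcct
Atp6v1b1 promoter (chr6:83742767-83743066, plus strand): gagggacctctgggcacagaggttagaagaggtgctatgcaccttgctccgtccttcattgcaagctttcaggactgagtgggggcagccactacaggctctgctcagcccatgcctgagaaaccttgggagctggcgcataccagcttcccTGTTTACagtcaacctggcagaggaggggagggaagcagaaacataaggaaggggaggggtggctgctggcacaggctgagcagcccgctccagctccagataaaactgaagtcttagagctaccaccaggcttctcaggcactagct
Atp6v0d1 promoter (chr8:105566015-105566314, minus strand): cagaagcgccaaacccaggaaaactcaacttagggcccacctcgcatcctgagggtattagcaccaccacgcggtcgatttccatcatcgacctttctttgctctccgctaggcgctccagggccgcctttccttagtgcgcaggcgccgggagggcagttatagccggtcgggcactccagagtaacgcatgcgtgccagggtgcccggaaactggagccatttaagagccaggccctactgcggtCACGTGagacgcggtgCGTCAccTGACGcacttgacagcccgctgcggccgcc
Both strands were searched for TGACGTCA (the full cAMP response element), TGACG (its shorter form, contained in it), CACGTG (an E box bound by factors such as TFEB) and TGTTTAC (a forkhead motif, the family of Foxi1). Of 32851 RefSeq promoters of this length, 1.79% hold TGACGTCA, 20.8% TGACG, 7.15% CACGTG and 3.65% TGTTTAC. None of the 4 motifs is in the Atp6v0a4 promoter window, nor in those of Atp6v0a1 and Atp6v1c2. The Atp6v0a1 window (chr11:101010148-101010447) and the Atp6v1c2 window (chr12:17324681-17324980) lie inside the gene bounds. The outermost starts of these 2 genes were therefore not searched. The Atp6v1b1 window holds 1 TGTTTAC, beginning 98 bases before the start. The Atp6v0d1 window holds 1 CACGTG and 2 TGACG matches, 1 of them on the other strand. These matches describe letters only.

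The libraries held 32997720 to 48935473 counted reads. Ctnnb1, the siRNA target, lay at 745 to 811 CPM (reads scaled to library size by the TMM method) in the 6 control siRNA libraries and at 306 to 342 in the 6 Ctnnb1 siRNA libraries. Aqp2 had 2, 0 and 0 reads with control siRNA and vehicle and 302, 189 and 279 with dDAVP. With Ctnnb1 siRNA, Aqp2 had 2, 6 and 0 reads with vehicle and 187, 171 and 155 with dDAVP. The third library of the Ctnnb1 siRNA with dDAVP group stood apart from its group: its 2 chi-square values per degree of freedom over genes were 41.7 and 67.3, against 5.27 to 24.5 for the other replicate pairs. Counts of members called, the Atp6v0a4 changes and the called genes named from lists are also given without it.

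Levels between genes were compared in TPM (reads per transcript length, scaled to a fixed sum per library), as the authors deposited it. The order of the mean over 12 libraries was Atp6v1g1 at 206.9 TPM ± 11 (SD, n = 12), Atp6v1c1 at 80.3 ± 2.83 and Atp6v0d1 at 76.7 ± 3.43. These are G1, a stalk subunit, C1, which joins the V1 stalk to the V0 sector, and d1, which seats the rotor. Atp6v1b1 followed at 59.7 ± 3.32 and Atp6v1b2 at 59.1 ± 3.93, the B subunits being the noncatalytic partners of the ATPase ring. Atp6v0a1 and Atp6v0a2 both had a mean of 26.7 TPM (SD 3.38 and 1.48, n = 12), and Atp6v0a4 one of 9.12 ± 2.98. The ranges of C1 and d1 overlapped, as did those of B1 and B2 and those of a1 and a2, so neighbours within those pairs were not separated by their spread. C1 was above d1 in 10 of 12 libraries, B1 above B2 in 8 and a1 above a2 in 6. The other neighbours did not overlap in any library: the lowest Atp6v1g1 value was 193.7 TPM and the highest Atp6v0a4 value 12.8.

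The intercalated isoforms differed widely in level. Atp6v1b1 was as abundant as its counterpart: B1 made up 46.6 to 53.1% of the summed TPM of B1 and B2. Atp6v1c2 (chromosome 12, 17284721-17325386, minus strand) had 14 reads in all, with 2, 3 and 9 reads in 3 libraries and 9 libraries at 0, where Atp6v1c1 had 2753 to 4219 reads per library. A count of 0 allows up to 0.0615 to 0.0909 CPM at these depths, a floor of 3 counts, so C2 was under the detection limit in those 9 libraries. The libraries with 2, 3 and 9 reads lay at 0.0408, 0.0632 and 0.203 CPM. Atp6v1c2 shares 50 of its 2174 exon bases with Pdia6 on the opposite strand, which had 8503 to 12612 reads. Whether the few C2 reads came from there was not tested. Atp6v0d2, the d2 gene known from osteoclasts and intercalated cells, has no row, and d1 was at 69.4 to 81.4 TPM.

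Among the 4 a subunit genes, Tcirg1 (a3), which is not one of the 10, was highest, at 47.5 to 53.9% of their summed TPM in each library. Atp6v0a1 held 17.1 to 22.9% and Atp6v0a2 18.9 to 22.2%. The Atp6v0a4 share was 4.58% ± 0.873 (SD, n = 3) with control siRNA and vehicle, 8.75 ± 0.652 with control siRNA and dDAVP, 5.64 ± 0.113 with Ctnnb1 siRNA and vehicle and 9.24 ± 0.872 with Ctnnb1 siRNA and dDAVP. By library, a4 held 3.82 to 5.76% in the 6 vehicle libraries and 8.06 to 10.2% in the 6 dDAVP libraries, with no overlap. The summed TPM of the 4 a genes was 119 to 139 in all 12 libraries. The coefficient of variation of TPM over the 12 libraries was 32.7% for Atp6v0a4 and 3.53 to 12.7% for the other 7 tested members.

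**Figure D1:**
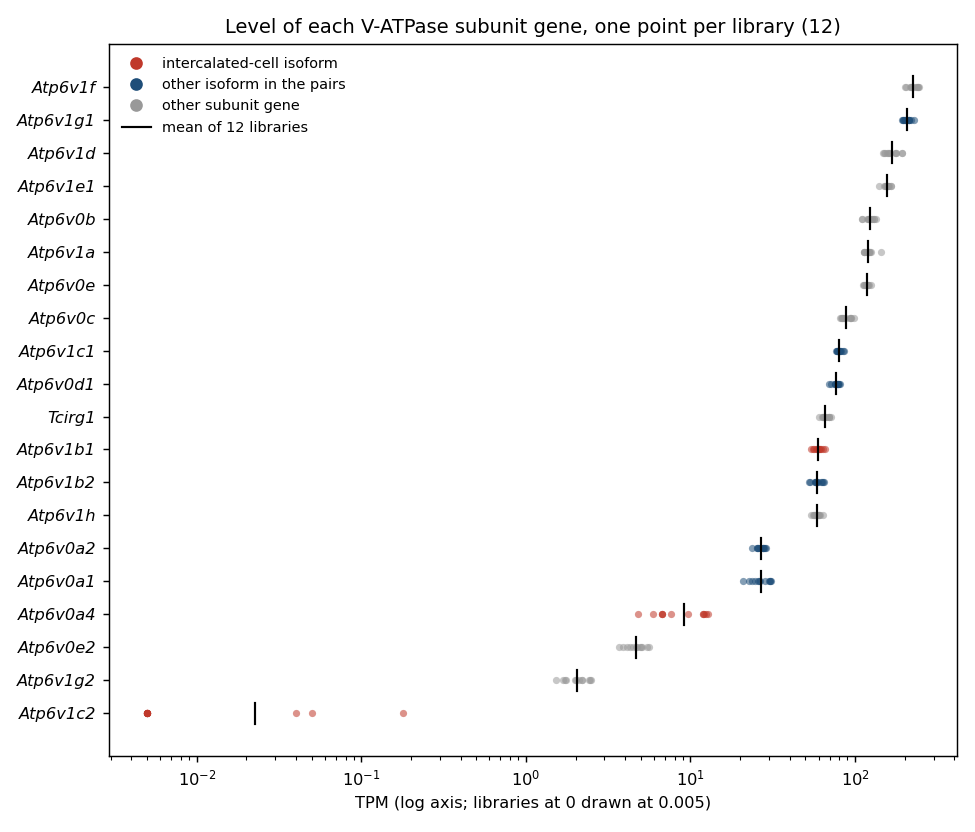
TPM (horizontal, log axis) of 20 V-ATPase subunit genes, 1 point per library with the mean as a bar, intercalated isoforms in red, the other members in blue and other subunits in grey. Atp6v1b1 sits among the widely expressed subunits at a mean of 59.7 TPM, Atp6v0a4 lies in a broad band from 4.82 to 12.8 TPM, and Atp6v1c2 is at 0 in 9 libraries (drawn at the left edge).

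dDAVP raised 1 of the 8 tested members, Atp6v0a4 (gene ID 140494, chromosome 6, 38048483-38124586, minus strand, GRCm38.p6). With control siRNA its reads numbered 548, 256 and 422 with vehicle and 742, 670 and 994 with dDAVP, or 11.2, 7.63 and 9.16 CPM against 18.9, 16.9 and 20.9 CPM. With Ctnnb1 siRNA they numbered 518, 506 and 492 with vehicle and 973, 1020 and 927 with dDAVP, or 12.7, 11.4 and 11.5 CPM against 21.3, 23.3 and 19.5 CPM. All 6 dDAVP libraries were higher than all 6 vehicle libraries; the lowest dDAVP value was 16.9 and the highest vehicle value 12.7 CPM. In TPM the means were 5.81 ± 0.940, 11.5 ± 1.59, 7.03 ± 0.534 and 12.15 ± 0.288 (SD, n = 3) in the order vehicle and dDAVP with control siRNA, then vehicle and dDAVP with Ctnnb1 siRNA.

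In edgeR's quasi-likelihood test with Benjamini-Hochberg adjustment over 16508 genes, Atp6v0a4 rose 2.02-fold with control siRNA (log2 1.01, SE 0.122, 95% interval 0.75 to 1.27, adjusted p = 0.000138). With Ctnnb1 siRNA it rose 1.8-fold (log2 0.85, SE 0.119, interval 0.60 to 1.10, adjusted p = 0.000618 by edgeR). Averaged over both siRNAs the rise was 1.91-fold (log2 0.93, SE 0.0853, adjusted p = 3.67e-06 by edgeR). Without the library that stood apart, the change with Ctnnb1 siRNA was 0.91 on the log2 scale (adjusted p = 0.000556 by edgeR) and that averaged over siRNAs 0.96 (adjusted p = 2.40e-06 by edgeR). In bulk RNA, more cells with the gene and more RNA per cell cannot be told apart.

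In the comparison with control siRNA, 1 of 8 members was called, where 2.83% of all tested genes were called in either direction and 1.91% higher. The CPM of vehicle and dDAVP libraries did not overlap for 2 of the 8, Atp6v0a4 and Atp6v0a2, against 22.2% of all tested genes. With Ctnnb1 siRNA 1 of 8 was called, against 2.78% of all genes in either direction and 2.08% higher, and 2 of 8 did not overlap, Atp6v0a4 and Atp6v0d1, against 17.8%. The median log2 change of the 8 members was 0.02 with control siRNA and 0.05 with Ctnnb1 siRNA, where all genes had −0.00422 and −0.00493. Averaged over siRNA, 1 of 8 was called, against 6.86% of all genes in either direction and 4.33% higher, and the 6 dDAVP and 6 vehicle libraries did not overlap for 1 of 8, against 4.34%. That gene was Atp6v0a4 each time. Without the library that stood apart, 1 of 8 was called in each of these 3 comparisons and 0 in those of the siRNA and the interaction.

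The counterparts of a4 were not called. Atp6v0a1 (chromosome 11, 101009422-101063719, plus strand) was at 47.3, 52.5 and 53.7 CPM with vehicle and 56.9, 44.5 and 48.8 with dDAVP under control siRNA, with overlapping libraries. Its log2 change was −0.03 (interval −0.26 to 0.20, adjusted p = 0.933 by edgeR), and −0.03 with Ctnnb1 siRNA (interval −0.26 to 0.20, adjusted p = 0.952). Atp6v0a2 (chromosome 5, 124629052-124724455, plus strand) was at 69.4, 70.6 and 71.7 CPM with vehicle and 73.8, 72.2 and 74.4 with dDAVP under control siRNA, all dDAVP libraries higher, with a log2 change of 0.06 (interval −0.03 to 0.15, adjusted p = 0.601 by edgeR). Under Ctnnb1 siRNA the a2 change was 0.00 (interval −0.09 to 0.09, adjusted p = 0.991 by edgeR). None of these 4 intervals reaches the lower bound of the a4 change.

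The intercalated B isoform was not called. Atp6v1b1 (chromosome 6, 83743017-83758855, plus strand) lay at 60.6, 53.0 and 53.4 CPM with vehicle and 59.0, 56.5 and 64.2 with dDAVP under control siRNA, and at 58.6, 61.2 and 65.7 against 64.9, 67.1 and 55.7 under Ctnnb1 siRNA. Libraries overlapped in both comparisons. The log2 change of Atp6v1b1 was 0.11 (interval −0.06 to 0.27, adjusted p = 0.599 by edgeR) and 0.02 (interval −0.15 to 0.18, adjusted p = 0.963 by edgeR). Atp6v1b2 (chromosome 8, 69088736-69113718, plus strand), its widely expressed partner, ranged from 77.1 to 88.7 CPM over all libraries, with log2 changes of −0.02 (adjusted p = 0.900 by edgeR) and 0.08 (adjusted p = 0.538 by edgeR).

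Atp6v0d1 (chromosome 8, 105524461-105566064, minus strand) was at 66.3, 61.3 and 60.0 CPM with vehicle and 62.7, 69.0 and 62.0 with dDAVP under control siRNA, and at 59.7, 59.0 and 64.7 against 72.1, 71.1 and 65.8 under Ctnnb1 siRNA. In the second pair all dDAVP libraries were higher, by 0.19 on the log2 scale (SE 0.0616, interval 0.06 to 0.32, unadjusted p = 0.00794, adjusted p = 0.143 by edgeR). With limma voom in place of edgeR this change was called (adjusted p = 0.0261). It was 0.23 without the library that stood apart (adjusted p = 0.0624 by edgeR). Atp6v1c1 (chromosome 15, 38661904-38692444, plus strand) had log2 changes of −0.00 and 0.07 (adjusted p = 0.995 and 0.610 by edgeR). Atp6v1g1 (chromosome 4, 63544765-63550701, plus strand) had −0.08 and −0.07 (adjusted p = 0.607 and 0.678 by edgeR).

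**Figure D2:**
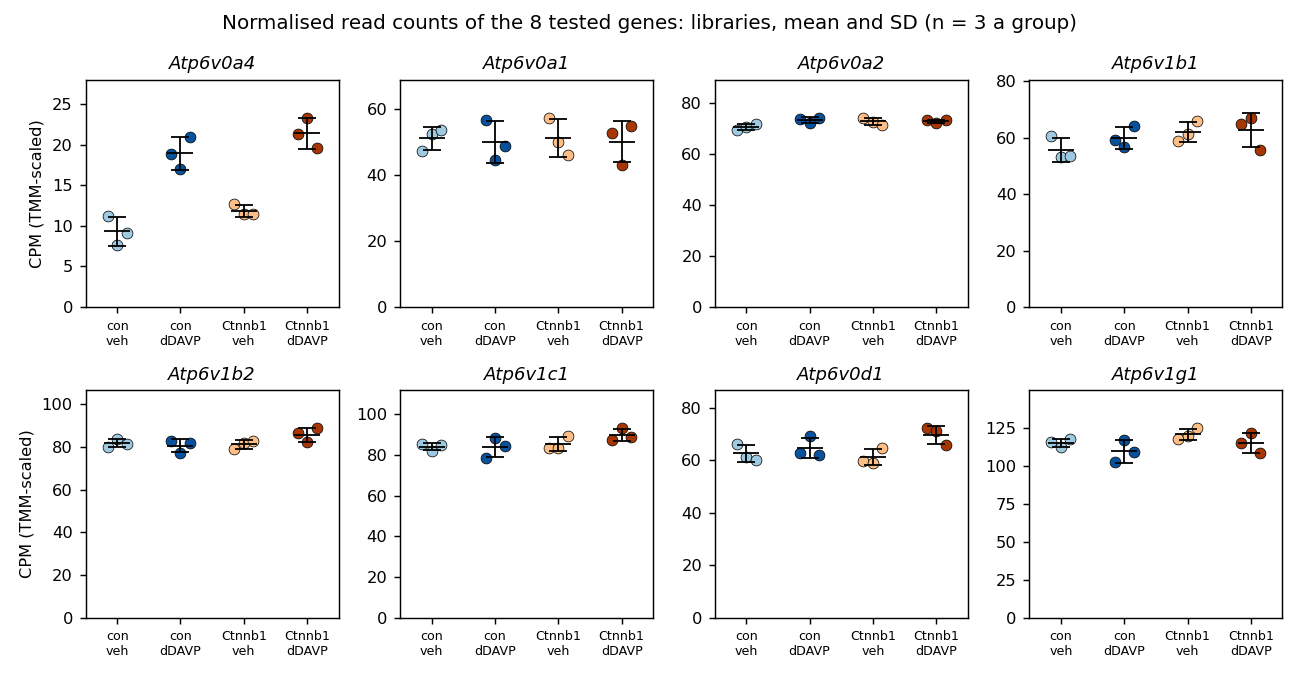
CPM (vertical, starting at 0) of the 8 tested members in the 4 groups, 1 point per library with the mean and SD of 3. Atp6v0a4 is the gene in which both dDAVP groups lie above both vehicle groups, at 16.9 to 23.3 against 7.63 to 12.7 CPM.

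**Figure D3:**
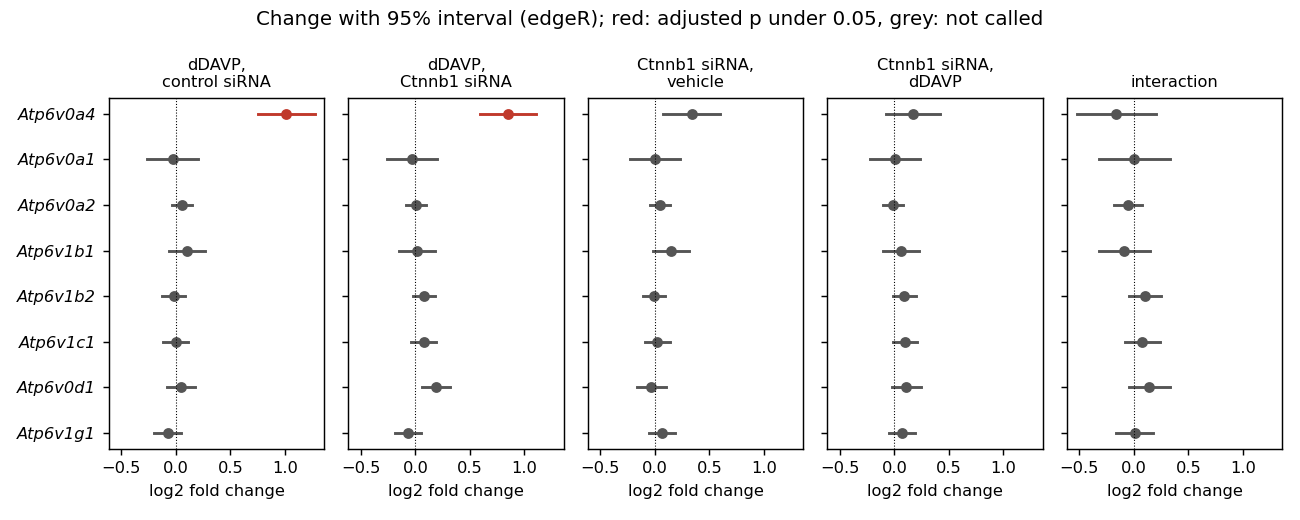
The log2 fold change and its 95% interval from edgeR for the 8 tested members in 5 comparisons, with called changes in red. Atp6v0a4 stands out in both dDAVP panels (log2 1.01 and 0.85), and no other member is called in any panel.

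The isoform ratio within a library does not depend on library scaling. The TPM ratio of Atp6v0a4 to Atp6v0a1 was 0.271, 0.169 and 0.192 with control siRNA and vehicle and 0.391, 0.428 and 0.486 with dDAVP. With Ctnnb1 siRNA it was 0.251, 0.261 and 0.285 with vehicle and 0.462, 0.600 and 0.400 with dDAVP. All 6 dDAVP libraries were above all 6 vehicle libraries. The rise was 1.95-fold (log2 0.96), with p = 0.005 in a two-sided exact permutation test within siRNA strata, the smallest p its 400 arrangements can give, and adjusted p = 0.015 over 6 ratio comparisons. This log2 rise was 1.03 without the library that stood apart (exact permutation, adjusted p = 0.015).

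The ratio of Atp6v0a4 to Atp6v0a2 rose 1.88-fold with dDAVP (log2 0.91, exact permutation p = 0.005, adjusted p = 0.015), from group means of 0.215 and 0.264 to 0.419 and 0.477. Its log2 rise was 0.945 without the library that stood apart (exact permutation, adjusted p = 0.015). The ratio of Atp6v1b1 to Atp6v1b2 was 1.06, 0.880 and 0.912 with control siRNA and vehicle, and 0.991, 1.02 and 1.09 with dDAVP. With Ctnnb1 siRNA it was 1.03, 1.04 and 1.10 with vehicle and 1.04, 1.13 and 0.873 with dDAVP. This B1 to B2 ratio differed by 0.03 on the log2 scale between dDAVP and vehicle (exact permutation p = 0.715, adjusted p = 0.715), with overlapping libraries, and by 0.0836 without the library that stood apart (exact permutation, adjusted p = 0.14). The C2 to C1 ratio was not tested because C2 had too few reads.

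**Figure D4:**
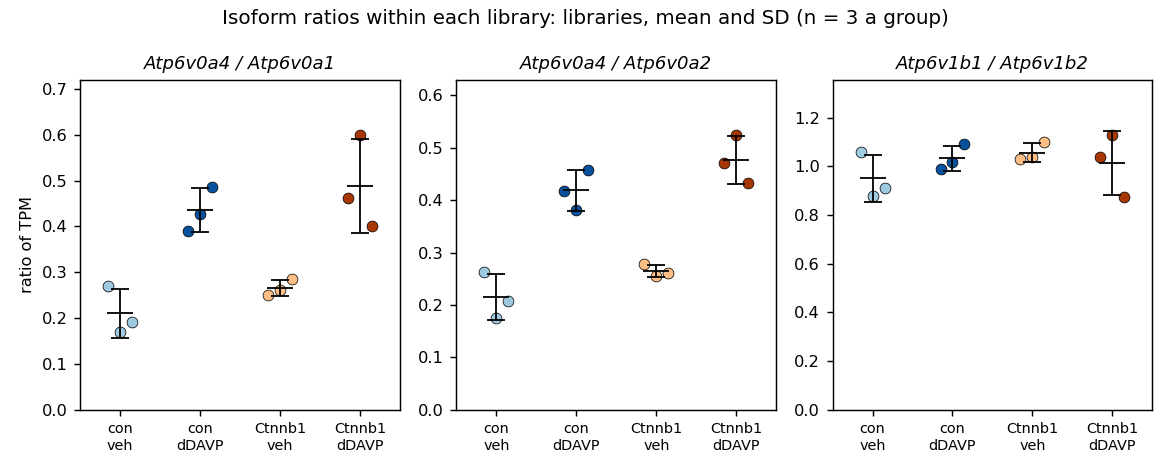
TPM ratio (vertical, starting at 0) of Atp6v0a4 to Atp6v0a1, Atp6v0a4 to Atp6v0a2 and Atp6v1b1 to Atp6v1b2 in each library, with the mean and SD of 3 per group. The a4 ratios rise with dDAVP under both siRNAs (for a4 to a1, from group means of 0.211 to 0.435 and of 0.266 to 0.487), while the B1 to B2 ratios lie between 0.873 and 1.13.

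Ctnnb1 siRNA was followed by no called change in any member. With vehicle, 0 of 8 were called by edgeR, against 0.430% of all genes. At an unadjusted p under 0.05 there was 1 of 8, against 1336 of 16508 genes. DESeq2, limma voom and limma on log2 TPM also called 0 of the members. With dDAVP, 0 of 8 were called by edgeR, against 0.267% of all genes. At an unadjusted p under 0.05 there were 0 of 8, against 1925 of 16508 genes, and the other tools again called 0. CPM did not overlap for 2 of 8 with vehicle (Atp6v0a4 and Atp6v1g1), against 18.2% of all genes, and for 0 of 8 with dDAVP, against 13.3%. The member with the unadjusted p under 0.05 was Atp6v0a4, higher with Ctnnb1 siRNA in all 3 vehicle libraries by log2 0.34 (SE 0.124, interval 0.07 to 0.60, adjusted p = 0.425 by edgeR). With the reads of the overlapping gene Tmem213 subtracted, this difference was 0.68 (adjusted p = 0.225 by edgeR).

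With dDAVP the Atp6v0a4 difference between siRNAs was 0.17 (interval −0.07 to 0.42, adjusted p = 0.597 by edgeR), and averaged over treatments 0.26 (SE 0.085, adjusted p = 0.171 by edgeR; 1.85% of all genes were called). With Tmem213 reads subtracted the averaged difference was 0.45 (adjusted p = 0.122 by edgeR). Without the library that stood apart, the differences with dDAVP and averaged were 0.24 and 0.29 (adjusted p = 0.307 and 0.0820 by edgeR). The ratio of a4 to a2 differed by 0.25 between siRNAs (exact permutation p = 0.03, adjusted p = 0.06) and that of a4 to a1 by 0.26 (exact permutation p = 0.125, adjusted p = 0.188). The B1 to B2 ratio differed by 0.07 (exact permutation p = 0.4, adjusted p = 0.48). Without that library the 3 ratio differences were 0.284, 0.323 and 0.118 (exact permutation, adjusted p = 0.06, 0.078 and 0.078). Atp6v1b1 was higher by 0.15 with vehicle (interval −0.01 to 0.32, adjusted p = 0.682 by edgeR). The siRNA and dDAVP comparisons share groups, so their values are not independent.

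The dDAVP change of Atp6v0a4 with Ctnnb1 siRNA minus that with control siRNA was −0.16 on the log2 scale (SE 0.17, interval −0.53 to 0.20, adjusted p = 0.936 by edgeR). It was −0.10 without the library that stood apart (adjusted p = 0.859 by edgeR) and −0.46 with Tmem213 reads subtracted (adjusted p = 0.917 by edgeR), so its size moved with these choices. No gene of 16508 was called for this interaction (0%), 829 had an unadjusted p under 0.05 by edgeR, and DESeq2 called 1, limma voom 0 and limma on log2 TPM 0. Among the 8 members, 0 were called and 0 had an unadjusted p under 0.05 by edgeR, and DESeq2, voom and log2 TPM called 0. The widest interval among the others was that of Atp6v0a1, −0.32 to 0.33.

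A gene on the opposite strand, Tmem213, overlaps Atp6v0a4 by 6555 bases and shares 62 of its 4973 exon bases, and whether the authors counted by strand is not stated, although the libraries were strand-specific. Tmem213 reads were 194, 110 and 193 with control siRNA and vehicle, 231, 287 and 265 with dDAVP, 99, 159 and 120 with Ctnnb1 siRNA and vehicle, and 225, 363 and 304 with dDAVP. All 6 dDAVP libraries were above all 6 vehicle libraries in CPM (4.92 to 8.30 against 2.42 to 4.19). Tmem213 changed by log2 0.70 with control siRNA (SE 0.191, adjusted p = 0.0642 by edgeR, not called) and rose by 1.15 with Ctnnb1 siRNA (SE 0.194, adjusted p = 0.00302 by edgeR). These were, without the library that stood apart, 0.70 (adjusted p = 0.0498 by edgeR, then called) and 1.17 (adjusted p = 0.00678 by edgeR).

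Subtracting the whole Tmem213 count from the Atp6v0a4 count was a setting chosen after the values were seen. How many reads counted for Atp6v0a4 came from Tmem213 is not known, so the subtraction does not bound them. Atp6v0a4 then lay at 4.35 to 10.3 CPM in the vehicle libraries and 9.68 to 16.4 in the dDAVP libraries. Within each siRNA the libraries still did not overlap. With control siRNA the rise was then log2 1.19 (adjusted p = 0.00301 by edgeR), and with Ctnnb1 siRNA the log2 change was 0.73 (adjusted p = 0.0507 by edgeR, no longer called). On the same strand, D630045J12Rik shares 259 exon bases with Atp6v0a4 and had 516 to 833 reads. It was not called in any comparison. With control siRNA and vehicle it had 751, 551 and 643 reads, more than the 548, 256 and 422 of Atp6v0a4. The reads of D630045J12Rik were not subtracted, and their part in the Atp6v0a4 count was not tested. Atp6v0a2 shares 663 exon bases with the antisense gene 4930404A12Rik, for which the table used here has no row.

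**Figure D5:**
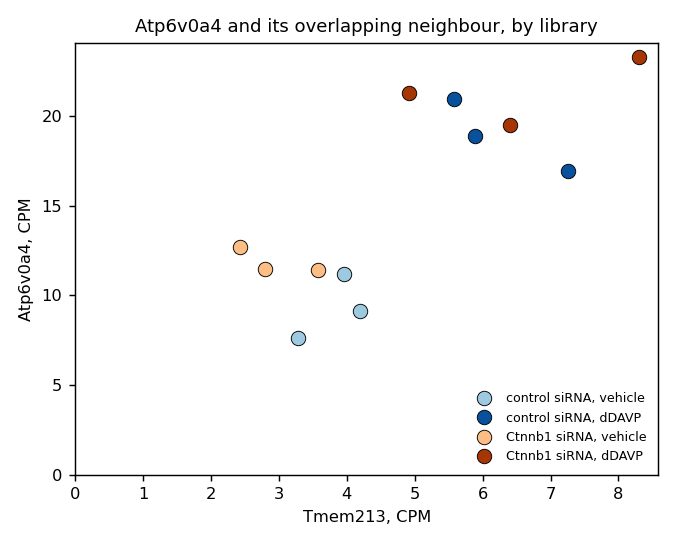
CPM of Atp6v0a4 (vertical) against CPM of Tmem213 (horizontal), both from 0, 1 point per library, coloured by group. The 6 dDAVP libraries lie above the 6 vehicle libraries on both axes.

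The other genes of the pump were counted by list, to be read beside the share of all tested genes called by edgeR. For dDAVP that share was 2.83% with control siRNA, 2.78% with Ctnnb1 siRNA and 6.86% averaged over siRNA. For the siRNA it was 0.430% with vehicle, 0.267% with dDAVP and 1.85% averaged over treatment, and for the interaction 0%. In lists of 5 to 7 tested genes, 0 calls lies close to these shares. The remaining V1 genes (catalytic A, stalk D, E, F, G2 and H, 6 of 8 listed in the table and tested) gave 0 calls by edgeR in all comparisons, and so did the remaining 5 V0 genes (Tcirg1, Atp6v0b, Atp6v0c, Atp6v0e and Atp6v0e2). At an unadjusted p under 0.05, the V1 genes gave 0 and 1 and the V0 genes 0 and 2 for dDAVP with control and with Ctnnb1 siRNA. Over all 16508 tested genes the numbers at this threshold were 2412 and 2254. The median log2 change with dDAVP was −0.03 and 0.10 for V1 and 0.00 and 0.06 for V0, each with control and then Ctnnb1 siRNA. The 7 tested of 8 accessory and assembly genes, such as Atp6ap2, also gave 0 calls by edgeR, with 0 and 1 at an unadjusted p under 0.05. In these 2 dDAVP comparisons DESeq2 called 1 V1 gene and voom 1 V0 gene higher with Ctnnb1 siRNA, and limma on log2 TPM called 0. Atp6v1f had the highest mean TPM of the pump's genes (200.9 to 244.4 by library) and Tldc2, a TLDc domain gene, the lowest of the V-ATPase lists apart from the 10 members (0.09 to 0.35). Reads of Atp6v0c are uncertain because a near copy, Atp6v0c-ps2, has its own row with 1311 to 1988 reads.

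Among 9 regulators of pump assembly, the dDAVP comparison called 1 higher with control siRNA, against 1.91% of all genes. With Ctnnb1 siRNA it called 1 higher and 1 lower, against 2.08% and 0.697% of all genes. A positive log2 change was seen in 4 and 3 of the 9, and the medians were −0.03 and −0.10. Oxr1, a TLDc protein, rose by log2 0.30 (SE 0.076, adjusted p = 0.0481 by edgeR) and 0.32 (SE 0.076, adjusted p = 0.0348 by edgeR). Dmxl2, a rabconnectin of the RAVE type assembly complex, fell by 0.28 with Ctnnb1 siRNA (SE 0.0695, adjusted p = 0.0406 by edgeR). Of 21 alternatives each, these calls were lost in 13, 8 and 12. Without the library that stood apart, Oxr1 rose by 0.19 with Ctnnb1 siRNA (adjusted p = 0.0429 by edgeR) and Dmxl2 fell by 0.31 (adjusted p = 0.0351 by edgeR).

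Markers of intercalated cells other than the members included genes that rose with dDAVP, genes with few reads and genes without a row. Of 17 listed, 12 have a row and 11 were tested; the table used here has no row for Foxi1, Slc26a4, Kit, Insrr or Atp6v1g3 (the G3 isoform), and Slc4a1, the anion exchanger of acid-secreting cells, had 7 reads in 1 library and 0 in the other 11. The summed TPM of the list was 205 to 230 with control siRNA and vehicle, 218 to 251 with dDAVP, 223 to 228 with Ctnnb1 siRNA and vehicle and 225 to 249 with dDAVP. Most of it came from Tfcp2l1 (mean of 12 libraries 108 TPM) and Car2 (84.7), where Aqp6 had a mean of 1.51. A sum depends on the genes listed, so sums of different lists are not comparable. dDAVP raised 2 of the 11 with control siRNA, Aqp6 (log2 1.56, adjusted p = 0.00240 by edgeR) and Car12 (0.31, adjusted p = 0.0426), a vesicle channel and a carbonic anhydrase, where 1.91% of all genes were called higher. With Ctnnb1 siRNA it raised 3, against 2.08% of all genes: Slc4a9 (0, 7 and 0 against 38, 43 and 36 reads, adjusted p = 0.0104 by edgeR), Aqp6 (log2 1.08, adjusted p = 0.0355) and Car12 (0.42, adjusted p = 0.00626). The Car12 call was lost in 14 of 21 alternatives with control siRNA and 1 of 21 with Ctnnb1 siRNA, and the Aqp6 call in 1 and 7 of 21. The Slc4a9 call was lost in 2 of 20. Without the library that stood apart, Aqp6 was no longer called with Ctnnb1 siRNA (log2 0.98, adjusted p = 0.0828 by edgeR), and Car12 and Slc4a9 were (adjusted p = 0.0166 and 0.0195). Averaged over siRNA, 5 of the 11 were called higher and 0 lower, against 4.33% and 2.54% of all genes. The 5 were Aqp6, Car12, Slc4a9, Car2 (log2 0.31, adjusted p = 0.0107 by edgeR) and Rhcg (0.25, adjusted p = 0.0206). The last 2 are a carbonic anhydrase and an ammonia transporter gene. Without that library the count was also 5. A positive log2 change was seen in 7 of the 11 with control siRNA, 7 with Ctnnb1 siRNA and 6 averaged over siRNA. The lowest changes were −0.975, −0.336 and −0.571 in that order. The part of these markers in the Atp6v0a4 result was not tested.

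All 14 listed principal cell markers have a row, and 11 were tested. Aqp4 (0 to 14 reads), Kcnj1 (0 to 4) and Elf5 (0 to 4) had too few reads. Of the 11 tested, 4 were called higher with dDAVP in each comparison, against 1.91% of all genes with control siRNA and 2.08% with Ctnnb1 siRNA, and 5 averaged over siRNA, against 4.33%. Aqp2, Tmem45b and Avpr2, the vasopressin receptor gene, were among them in both. Aqp3, a basolateral water channel gene, was the other with control siRNA, and Nr3c2, the mineralocorticoid receptor gene, with Ctnnb1 siRNA. The Aqp3 call was lost in 9 of 21 alternatives and the Nr3c2 call in 13 of 21, among them the fit without the library that stood apart (log2 0.50, adjusted p = 0.132 by edgeR). In that fit Aqp2, Tmem45b and Avpr2 were called with Ctnnb1 siRNA (adjusted p = 2.22e-06, 0.000149 and 0.0109 by edgeR). A positive log2 change with dDAVP was seen in 8 of the 11 with control siRNA and 9 with Ctnnb1 siRNA. Tmem45b was also called lower with Ctnnb1 siRNA averaged over treatment (log2 −0.27, adjusted p = 0.0213 by edgeR), where 0.909% of all genes were. That call was lost in 5 of 20 alternatives. The summed TPM of the principal cell list was 142 to 152, 163 to 201, 129 to 133 and 141 to 178 in the same group order. Summed TPM was 8.35 to 13.4 for the proximal tubule list, 16 to 21.1 for macrophage and osteoclast and 0.54 to 0.97 for fibroblast. For thick ascending limb and distal convoluted tubule it was 0 to 0.18. Single genes of these lists were not all low. Lrp2 (proximal tubule) had a mean of 10.4 TPM and Csf1r (macrophage and osteoclast) one of 12.3, where Atp6v0a4 had 9.12. None of the tested genes of these lists was called by edgeR in the 4 comparisons of single groups. Of all tested genes, 2.83% and 2.78% were called for dDAVP with control and Ctnnb1 siRNA, and 0.430% and 0.267% for the siRNA with vehicle and dDAVP. At an unadjusted p under 0.05, there were 1 proximal tubule and 1 macrophage gene for dDAVP with control siRNA. With Ctnnb1 siRNA 1 proximal tubule and 1 fibroblast gene did so for dDAVP, and for the siRNA 1 fibroblast gene with vehicle. Over all 16508 tested genes the numbers were 2412 and 2254 for dDAVP, and 1336 for the siRNA with vehicle. DESeq2 called 1 proximal tubule gene lower with dDAVP under each siRNA, and voom and log2 TPM called 0. Averaged over siRNA, Lrp2, a proximal tubule endocytic receptor gene, fell by 0.23 (adjusted p = 0.00446 by edgeR).

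Genes of like pattern were sought among 11711 genes with a mean of at least 1 CPM, with predicted genes (Gm and Rik names) left out. The 4 whose log2 CPM followed Atp6v0a4 most closely over the 12 libraries were Fxyd2 (Pearson r 0.977), Selenbp1 (0.973), Agfg2 (0.971) and Slc39a14 (0.971). The points share their libraries and treatment groups. Fxyd2, a regulator of the sodium pump, had group means of 10.2, 25.6, 11.6 and 29 CPM, and Slc39a14, a metal transporter gene, 123, 182, 135 and 189. For Atp6v1b1 the 4 closest were Arhgap24 (r 0.901), H3c8 (0.887), S100a1 (0.879) and Ap2m1 (0.870). Between Atp6v0a4 and Atp6v1b1 the r was 0.55 over the same 12 libraries.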

How the data were processed

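Libraries were made from total RNA with ribosomal RNA removed by a strand-specific kit, per the labels. Per the submitters' processing notes, FastQC, Trimmomatic, HISAT2, StringTie and DESeq2 were used with GRCm38 (mm10), and no versions are stated. The deposited table holds whole-number read counts per gene and, beside them, TPM values that the authors computed per length, scaled to a fixed sum; whether counting used strand is not given in the sources used here.

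The deposited counts were fitted with edgeR 4.0.16 (R 4.3.3, quasi-likelihood, TMM scaling) over all 12 libraries in 4 groups. After the filter on low counts 16508 of 25208 genes were tested, which hold 99.9685% of the reads. Calls are at a Benjamini-Hochberg adjusted p of 0.05, and intervals use the fit's degrees of freedom. The common biological coefficient of variation was 8.263%. Isoform ratios of TPM were tested by exact permutation over libraries where both genes had at least 10 reads in every library. Floors of 3 counts cover counting error only. The fit and the ratio test were tested on simulated data.

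The 10 members and all gene lists were chosen with earlier results of these data known. All members are named. From each list, called genes are named (at most 4 by adjusted p), with the highest and lowest level. The 4 closest patterns are also named (mean of at least 1 CPM, Gm and Rik names left out). Alternatives were DESeq2 1.42.0 (own filter and size factors), limma 3.58.1 (voom, and log2 of TPM plus 1), other scalings and filters, only the groups compared, a replicate block, each library left out, and for ratios CPM and a pseudocount of 1. The subtraction of Tmem213 reads and the motif TGTTTAC were added after the data were seen. Protein sequences were not used here.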

Additional observations from a re-analysis of the deposited data

How the results depend on the processing

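Of 1159 alternative values for 56 member results, 1155 kept their side of the threshold, 1 was no longer called, 3 became called and 0 called values changed sign. The only called results among the 56 were the Atp6v0a4 changes with dDAVP. The rest were uncalled from the start, many far from the threshold, so their staying uncalled says little. The Atp6v0a4 rise with dDAVP ranged over log2 0.87 to 1.19 with control siRNA and 0.71 to 0.91 with Ctnnb1 siRNA; its siRNA difference with vehicle ranged over 0.22 to 0.68 and its interaction over −0.46 to −0.05. Members called for dDAVP with Ctnnb1 siRNA numbered 1 in the report, 2 with voom (Atp6v0d1 added) and 0 with Tmem213 reads subtracted. Averaged over siRNA they numbered 2 with voom (Atp6v0d1, adjusted p = 0.0407) and 2 on log2 TPM plus 1 (Atp6v1g1 lower, adjusted p = 0.0289); that scale put the median of all genes at −0.0459 and −0.0494 for dDAVP. The causes were not tested.

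Replicate numbers do not pair the libraries: the correlation of deviations was over 0.1 in 0 of 18 same-number pairs, and a library correlated best with its own number in 12 of 36 matches to another group. With the replicate block, 408 genes in place of 467 were called for dDAVP with control siRNA and 415 in place of 459 with Ctnnb1 siRNA, and no member's call changed. With the block the siRNA difference of the a4 to a2 ratio was 0.251, with an adjusted permutation p of 0.03 in place of 0.06. That p is not exact, because libraries were shuffled across replicate numbers after centring on them, so no call is drawn from it. Leaving out libraries gave a difference of this ratio of 0.183 to 0.327 (adjusted exact permutation p 0.02 to 0.16, the lowest p without the first control siRNA vehicle library).

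Over all genes, calls for dDAVP with control siRNA ran from 240 to 843 when a library was left out and to 1301 with voom. With Ctnnb1 siRNA they ran from 212 to 492, with 210 on log2 TPM plus 1 and 737 by DESeq2. For Ctnnb1 siRNA they ran from 18 to 181 with vehicle and 5 to 216 with dDAVP when a library was left out, against 71 and 44, and reached 255 with only the groups compared and 301 with voom. Atp6v1c2 had 0 reads in 9 libraries and at most 9 reads in any library, too few to test at these depths.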
